A study of Homo sapiens with 9 samples.

Results

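The genes MX1, MX2, RSAD2, CMPK2, SAMHD1, ISG20, EIF2AK2, APOBEC3G and APOBEC3F encode antiviral effectors that block viral entry into the nucleus, deplete or modify nucleotides, degrade or edit viral nucleic acid, or stop translation. They were taken by gene symbol, and each of the 9 had 1 transcript cluster among the 21448 measured. Their levels were read on 9 Clariom S arrays hybridised with RNA of the human malignant pleural mesothelioma line ACC-MESO-1. The cells had been infected with a control short hairpin RNA (replicates 1 to 3) or with 1 of 2 hairpins against the histone demethylase LSD1, shLSD1 #1 (replicates 4 to 6) and shLSD1 #2 (replicates 7 to 9). All groups thus carried a hairpin construct, uninfected cells were not analysed here, and neither was the LSD1 transcript. The question of the series is what suppression of LSD1 does to mesothelioma cells. The genes were selected on their log2 differences between hairpin and control arrays, so those values are a description, given without a p-value. Where the text says whether such a value passed a threshold, that too is only a description.

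Type I and type III interferons act on cells through receptors that activate JAK kinases. The kinases phosphorylate STAT proteins, which join IRF9 and bind paired GAAA motifs, known as interferon-stimulated response elements, near the starts of target genes. MX1 and MX2 are dynamin-like GTPases that trap viral nucleocapsids, MX1 mainly in the cytoplasm and MX2 at the nuclear pore. RSAD2 encodes viperin, a radical SAM enzyme that converts CTP into a chain-terminating nucleotide, and CMPK2 is a nucleoside monophosphate kinase that supplies CTP. SAMHD1 hydrolyses deoxynucleotides and so starves reverse transcription. ISG20 is an exonuclease, EIF2AK2 encodes the kinase PKR, which senses double-stranded RNA and phosphorylates eIF2alpha, and APOBEC3G and APOBEC3F deaminate cytidine in viral DNA.

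RefSeq start windows (GRCh38.p14, 250 bases before to 50 bases after an annotated transcript start) were at hand for 6 of the 9 genes, MX1, RSAD2, CMPK2, SAMHD1, ISG20 and EIF2AK2. They are shown because the paired motif is the element through which interferon is known to act on this class of genes. The motifs searched were GAAANNGAAA and GAAANGAAA on both strands, and capitals mark each match. Overlapping matches run together in capitals.
MX1, chr21:41420308-41420607, plus strand: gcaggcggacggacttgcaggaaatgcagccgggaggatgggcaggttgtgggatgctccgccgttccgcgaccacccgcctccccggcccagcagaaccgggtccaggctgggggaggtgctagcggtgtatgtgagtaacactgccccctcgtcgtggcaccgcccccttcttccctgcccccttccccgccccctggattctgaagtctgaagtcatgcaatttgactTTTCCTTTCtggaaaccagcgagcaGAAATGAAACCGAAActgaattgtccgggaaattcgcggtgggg
MX1, chr21:41425989-41426288, plus strand: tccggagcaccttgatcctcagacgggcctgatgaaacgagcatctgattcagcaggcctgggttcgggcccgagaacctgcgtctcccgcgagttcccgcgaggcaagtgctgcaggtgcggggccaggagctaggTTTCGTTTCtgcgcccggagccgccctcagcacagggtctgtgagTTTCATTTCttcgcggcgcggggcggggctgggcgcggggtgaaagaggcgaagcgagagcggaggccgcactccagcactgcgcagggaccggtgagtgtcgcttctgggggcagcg
RSAD2, chr2:6865635-6865934, plus strand: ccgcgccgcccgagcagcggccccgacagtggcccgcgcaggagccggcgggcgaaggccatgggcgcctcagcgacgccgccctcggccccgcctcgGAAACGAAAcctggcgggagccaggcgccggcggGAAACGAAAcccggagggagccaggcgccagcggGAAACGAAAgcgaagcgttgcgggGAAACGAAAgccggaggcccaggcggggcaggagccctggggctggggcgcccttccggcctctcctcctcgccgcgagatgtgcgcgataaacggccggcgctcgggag
RSAD2, chr2:6877527-6877826, plus strand: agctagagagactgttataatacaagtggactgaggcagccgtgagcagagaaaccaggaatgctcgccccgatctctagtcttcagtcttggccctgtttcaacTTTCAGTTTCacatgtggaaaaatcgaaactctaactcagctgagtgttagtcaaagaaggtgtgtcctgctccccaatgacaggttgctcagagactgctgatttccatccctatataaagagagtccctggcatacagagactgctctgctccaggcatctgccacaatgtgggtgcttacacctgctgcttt
CMPK2, chr2:6865770-6866069, minus strand: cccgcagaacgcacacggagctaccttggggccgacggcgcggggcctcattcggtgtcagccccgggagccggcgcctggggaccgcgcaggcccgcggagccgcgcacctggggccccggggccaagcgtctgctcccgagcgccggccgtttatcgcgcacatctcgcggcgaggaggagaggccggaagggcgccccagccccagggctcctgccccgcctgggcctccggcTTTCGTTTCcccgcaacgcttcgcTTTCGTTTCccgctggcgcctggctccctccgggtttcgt
ISG20, chr15:88638766-88639065, plus strand: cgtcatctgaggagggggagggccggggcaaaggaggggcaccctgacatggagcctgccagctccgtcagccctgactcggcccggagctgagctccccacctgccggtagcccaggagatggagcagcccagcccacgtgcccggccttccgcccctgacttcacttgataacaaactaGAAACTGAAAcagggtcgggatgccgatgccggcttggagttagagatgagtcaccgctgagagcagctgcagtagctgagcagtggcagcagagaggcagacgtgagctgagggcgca
EIF2AK2, chr2:37156931-37157230, minus strand: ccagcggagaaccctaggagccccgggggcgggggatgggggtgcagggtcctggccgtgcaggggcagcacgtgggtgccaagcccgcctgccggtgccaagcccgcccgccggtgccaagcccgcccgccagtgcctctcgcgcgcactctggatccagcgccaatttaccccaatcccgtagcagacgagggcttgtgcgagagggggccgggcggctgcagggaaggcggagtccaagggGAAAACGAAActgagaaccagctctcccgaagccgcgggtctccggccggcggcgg
SAMHD1, chr20:36951659-36951958, minus strand: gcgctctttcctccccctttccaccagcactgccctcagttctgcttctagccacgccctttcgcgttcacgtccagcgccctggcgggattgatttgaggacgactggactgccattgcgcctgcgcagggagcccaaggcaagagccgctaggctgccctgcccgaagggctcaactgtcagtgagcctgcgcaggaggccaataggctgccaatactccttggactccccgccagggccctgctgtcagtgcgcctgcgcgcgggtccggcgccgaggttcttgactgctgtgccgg

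Of the 11 windows of these 6 genes, 8 held a match, and 5 of the 6 genes had at least 1 window with one. Among all 35116 windows of this length, 3.57% held GAAANNGAAA, 3.12% held GAAANGAAA and 6.4% held either. RSAD2 had 4 copies of GAAANGAAA, which began 152, 118, 84 and 60 bases before the upstream of its 2 annotated starts. This RSAD2 window was the 1 window of all 35116 with 4 or more copies of GAAANGAAA. CMPK2 lies beside RSAD2 and is read in the opposite direction. A CMPK2 start lay 66 bases from that RSAD2 start, the windows overlapped over 165 bases, and 2 of the motif copies were common to both. A nearer CMPK2 start, 22 bases from the same RSAD2 start, had a window overlapping over 77 bases with 0 copies in common. The other RSAD2 start lay 11142 to 11958 bases from the CMPK2 starts. Its window held 1 copy of GAAANNGAAA 145 bases before that start, and the other 2 CMPK2 windows held none. In MX1 the copies lay around 1 start and at 113 and 68 bases before another, and a further window, not shown, held 1 copy 196 bases before its start. ISG20 had 1 copy 69 bases before its start, and in EIF2AK2 the copy began 6 bases before the start and ran across it. No match was found in the single SAMHD1 window. These are matches of letters, and the arrays do not show which start was used.

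**Figure D1:**
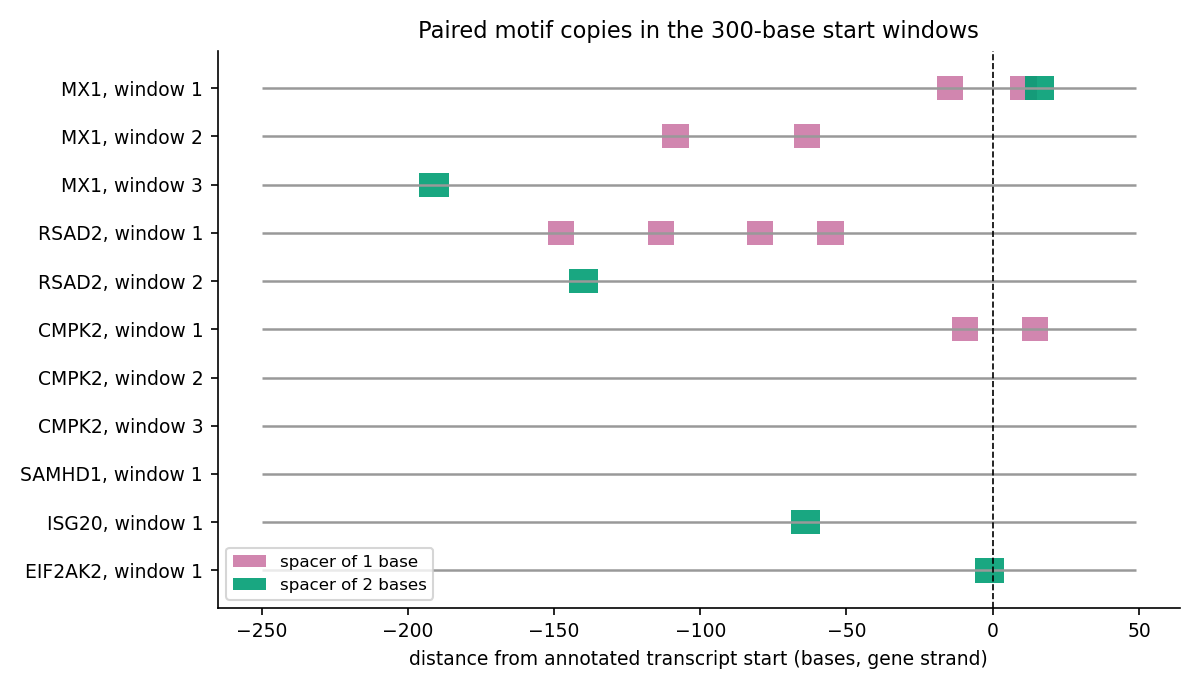
Positions of the paired motif in the 11 start windows of 6 genes, as distance in bases from the annotated transcript start on the gene strand. The colours give the spacer length, and RSAD2 window 1 shows 4 copies within 152 bases of its start while both later CMPK2 windows and the SAMHD1 window are empty.

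All 9 genes had lower signal on the arrays of both hairpins than on any control array. For 8 of the 9 the fit over all clusters put the difference past the adjusted threshold of 0.05 with shLSD1 #1, where 7.94% of all clusters were called lower and 7.85% higher, and for the same number with shLSD1 #2, where 6.63% were lower and 6.56% higher. The exception was APOBEC3F with both hairpins. The 8 include MX2, which was at background on every array. All 6 hairpin arrays lay below all 3 control arrays for 9 of 9 genes and for 11.3% of all clusters. Because the genes were chosen with these differences known, nothing is read from the counts. The median change over the 9 genes was -1.32 with shLSD1 #1 and -1.86 with shLSD1 #2 on the log2 scale, against 0.03 and 0.02 over all clusters. With lower values raised to 7.25, the mean background level over arrays, the medians were -1.15 and -1.43. Both comparisons use the same 3 control arrays, and in this bulk RNA fewer cells expressing a gene and less RNA per cell cannot be told apart.

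The values are log2 signals that the authors summarised by RMA (robust multi-array average). A gene is called at background on an array unless its signal there exceeded the 95th percentile of 612 negative control probe sets, which ran from 6.93 to 7.54. Array medians lay between 6.39 and 6.43, and 42.0% to 46.2% of clusters exceeded background. Signal of the hybridization spike-ins, foreign transcripts added to each sample, was higher for all control shRNA arrays and for shLSD1 #2 replicates 7 and 9 (11.18 to 11.38) than on the 3 shLSD1 #1 arrays and shLSD1 #2 replicate 8 (10.80 to 10.93). Blocking on this class, 5 of the 9 genes rather than 8 passed for shLSD1 #1. All control arrays fall in 1 class and all shLSD1 #1 arrays in the other, so the class effect is estimated only within shLSD1 #2. It is the difference of replicate 8 from replicates 7 and 9. Blocked shLSD1 #1 values shift by that difference, so class and hairpin cannot be told apart there. For shLSD1 #2, blocking gives the same change as leaving out replicate 8. Of the mesothelial and mesothelioma markers, KRT8, KRT18, VIM and MSLN exceeded background throughout, CALB2 and KRT5 on 0 arrays, PDPN and KRT19 on 1 array each, and UPK3B on 2 of 3 shLSD1 #1 and 3 of 3 shLSD1 #2 arrays. WT1 exceeded it on the 6 hairpin arrays and 0 control arrays. MSLN fell with both hairpins (-0.85 and -0.95, adjusted p = 0.00729 and 0.00482 in limma), and UPK3B (1.33 and 1.34) and WT1 (0.84 and 0.75) rose, while KRT8, KRT18 and VIM did not pass. The part of these shifts in the results was not tested. All 4 leukocyte and 3 endothelial markers with a cluster, among them PTPRC, CD3E and PECAM1, were at background on every array. Whether replicates came from separate cultures is not in the labels, so errors and p-values measure only the spread between these arrays, which may be technical.

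**Figure D2:**
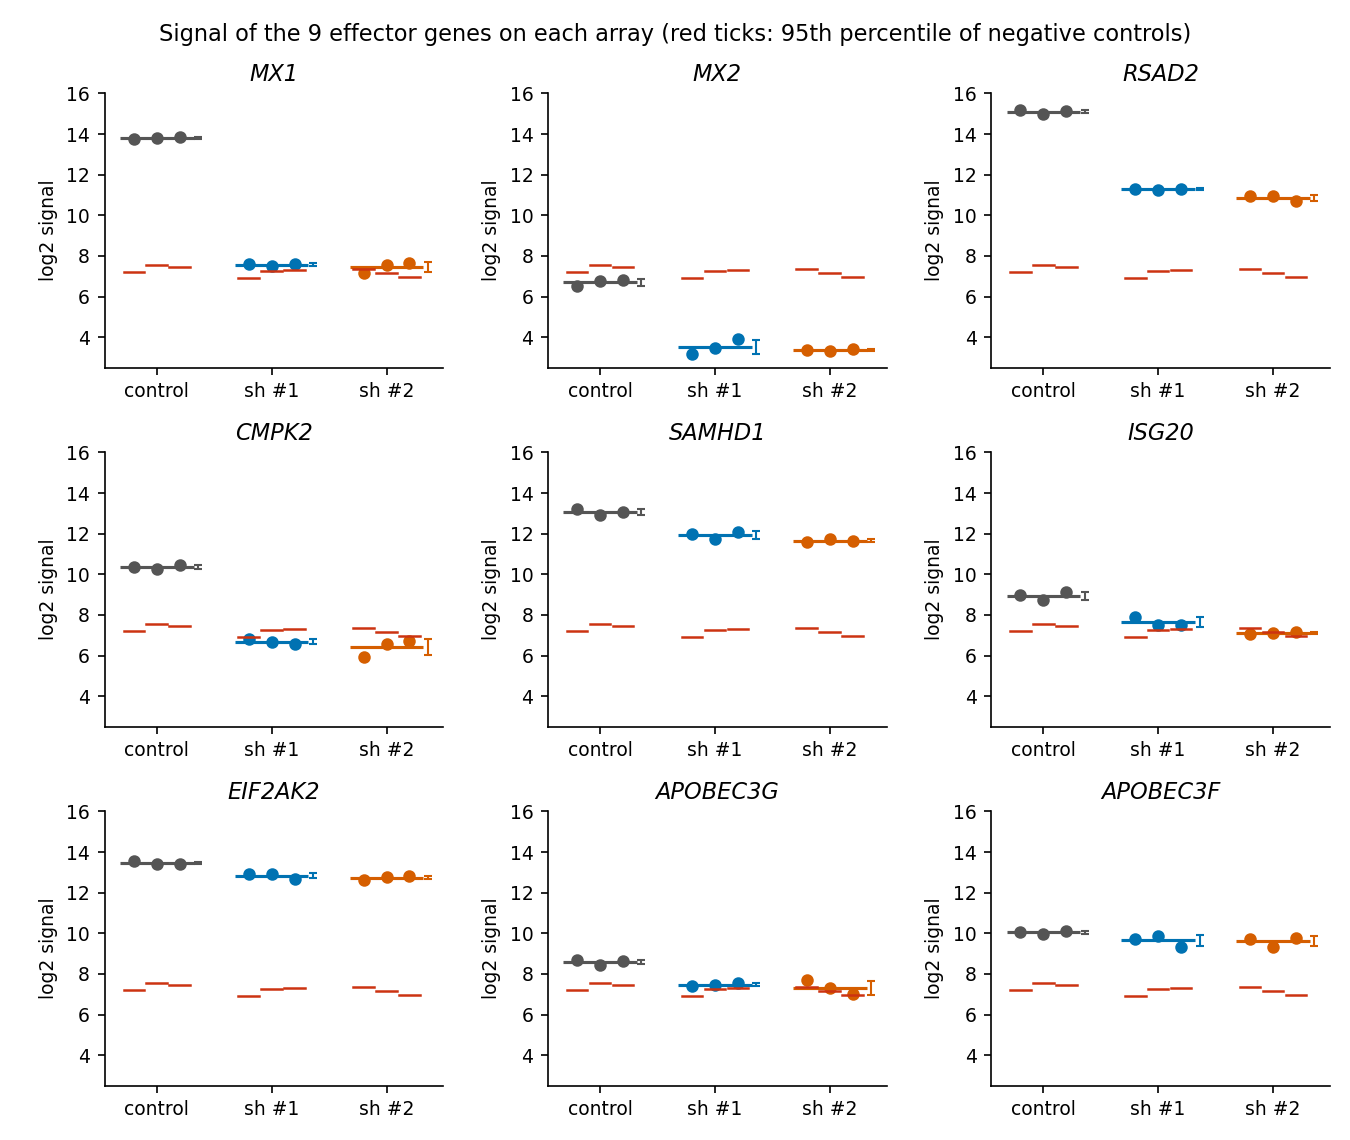
Log2 signal of each gene on each of the 9 arrays, with a line at the group mean, an SD bar beside it and red ticks at the 95th percentile of the negative controls on that array. MX1 drops from 13.81 to 7.58 and 7.46, close to the ticks, MX2 lies under the ticks throughout, and RSAD2, SAMHD1, EIF2AK2 and APOBEC3F stay above them on all 9 arrays.

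The dynamin-like GTPase MX1 showed the widest separation of the 9 genes. Its control arrays read 13.77, 13.81 and 13.86, its shLSD1 #1 arrays 7.62, 7.50 and 7.61, and its shLSD1 #2 arrays 7.17, 7.54 and 7.67. The 3 control arrays sat within 0.05 (SD) of their mean of 13.81, and more than 6 log2 units separated the lowest of them from every hairpin array. The fitted changes were -6.23 ± 0.14 and -6.35 ± 0.14 (SE, n = 3), or 1.33% and 1.23% of the control signal. The shLSD1 #1 arrays stayed just above background and shLSD1 #2 replicate 7 was below it. MX2, its neighbour and paralogue, gave 6.50, 6.76 and 6.83 on control arrays, 3.18, 3.46 and 3.89 with shLSD1 #1, and 3.36, 3.33 and 3.40 with shLSD1 #2. The groups did not overlap, but MX2 was at background on every array, control included, and no fold is given. The related MX1 and MX2 transcripts may share probe signal.

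RSAD2 and CMPK2, the neighbours read in opposite directions, were both lower, RSAD2 by a measured amount and CMPK2 by at least the fold that background allows. RSAD2 read 15.18, 15.004 and 15.15 on control arrays, 11.31, 11.24 and 11.31 with shLSD1 #1, and 10.94, 10.96 and 10.69 with shLSD1 #2. All shLSD1 #2 arrays lay below all shLSD1 #1 arrays, and even the lowest of the 9 stood well above background. The changes were -3.82 ± 0.12 and -4.25 ± 0.12 (SE, n = 3), or 14.2-fold and 19.0-fold lower. CMPK2 read 10.34, 10.26 and 10.46 on control arrays, 6.82, 6.67 and 6.56 with shLSD1 #1, and 5.95, 6.55 and 6.71 with shLSD1 #2. Each of its hairpin arrays was at background, so its level there is only bounded. Against the background level, CMPK2 was at least 9.07-fold lower with shLSD1 #1 and at least 9.10-fold lower with shLSD1 #2.

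The deoxynucleotide hydrolase SAMHD1 kept a clear signal in every group. Control arrays read 13.23, 12.94 and 13.09, shLSD1 #1 arrays 12.01, 11.73 and 12.08, and shLSD1 #2 arrays 11.62, 11.73 and 11.62. The lowest control array exceeded the highest hairpin array by 0.87, and the hairpin groups met at 11.73. SAMHD1 changed by -1.15 ± 0.13 and -1.43 ± 0.13 (SE, n = 3), which left 45.1% and 37.1% of the control signal. The exonuclease ISG20 read 9.002, 8.74 and 9.12 on control arrays, 7.92, 7.50 and 7.50 with shLSD1 #1, and 7.06, 7.10 and 7.14 with shLSD1 #2. The 3 groups formed 3 separate steps, and of the shLSD1 #2 arrays replicate 9 alone exceeded background. Its changes were -1.32 ± 0.15 and -1.86 ± 0.15 (SE, n = 3). Blocking on spike-in class, the ISG20 change with shLSD1 #1 was -1.31 ± 0.29, short of the threshold.

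EIF2AK2, which encodes PKR, differed far less. Its control arrays read 13.54, 13.44 and 13.41, its shLSD1 #1 arrays 12.92, 12.92 and 12.68, and its shLSD1 #2 arrays 12.65, 12.78 and 12.82. Hairpin arrays were all lower than control and mixed with each other. The changes of -0.62 ± 0.12 and -0.71 ± 0.12 (SE, n = 3) left 65.0% and 61.0% of the control signal. Blocking on spike-in class, the shLSD1 #1 change was -0.66 ± 0.22, short of the threshold.

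The deaminases APOBEC3G and APOBEC3F, close relatives whose genes sit in 1 cluster, had the remaining differences. APOBEC3G read 8.67, 8.45 and 8.63 on control arrays, 7.42, 7.48 and 7.55 with shLSD1 #1, and 7.68, 7.29 and 7.01 with shLSD1 #2. Its hairpin arrays were separate from control and just above background, with changes of -1.11 ± 0.17 and -1.26 ± 0.17 (SE, n = 3), and blocking on spike-in class, the shLSD1 #1 change of -1.05 ± 0.32 was short of the threshold. APOBEC3F read 10.07, 9.97 and 10.12 on control arrays, 9.74, 9.88 and 9.35 with shLSD1 #1, and 9.73, 9.35 and 9.78 with shLSD1 #2. Here the lowest control array cleared the highest hairpin array by only 0.09. The APOBEC3F changes were -0.40 ± 0.17 and -0.44 ± 0.17 (SE, n = 3) and did not pass the threshold, and with the block the shLSD1 #1 value was 0.0046 ± 0.27. APOBEC3 transcripts are similar in sequence and may share probe signal.

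**Figure D3:**
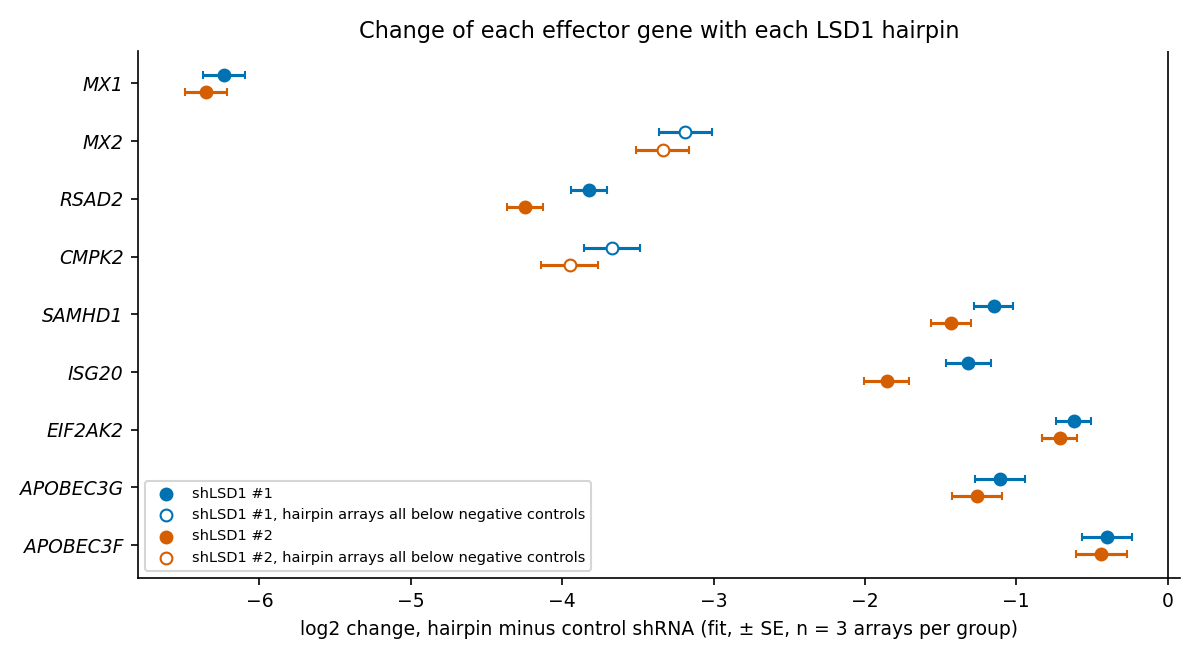
Fitted log2 change of each gene against control shRNA for shLSD1 #1 (blue) and shLSD1 #2 (orange), with SE bars from 3 arrays per group. Open circles mark genes whose hairpin arrays were all at background (MX2 and CMPK2), and the values run from -6.35 for MX1 to -0.40 for APOBEC3F.

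The contrast between the hairpins played no part in the choice of the genes and was tested. By limma, 0 of the 9 genes differed between shLSD1 #1 and shLSD1 #2 at an adjusted p of 0.05, as did 0 of 21448 clusters (0%), and 2 of the 9 had an unadjusted p under 0.05, against 7.87% of all clusters. Fitted signal was higher with shLSD1 #1 for 9 of 9 genes, counting MX2 and CMPK2 at background, and for 50.2% of all clusters. The 9 genes share the same arrays, so nothing is read from this count. On omitting single arrays the sign turned for MX1 (lowest value -0.026), MX2 (-0.041), APOBEC3G (-0.0079) and APOBEC3F (-0.097). The 2 genes with an unadjusted p under 0.05 were ISG20 and RSAD2. ISG20 differed by 0.54 (95% interval 0.20 to 0.88, unadjusted p = 0.00541, adjusted p = 0.480 in limma) and RSAD2 by 0.42 (0.16 to 0.68, unadjusted p = 0.00501, adjusted p = 0.479 in limma). Every shLSD1 #2 array of these 2 genes was below every shLSD1 #1 array. Both genes were singled out by this contrast and the share over all clusters was not counted, so nothing is read from that separation. SAMHD1 differed by 0.28 (-0.01 to 0.58). MX1 differed by 0.12 (-0.19 to 0.43), EIF2AK2 by 0.09 (-0.17 to 0.35), APOBEC3G by 0.15 (-0.22 to 0.53) and APOBEC3F by 0.04 (-0.34 to 0.41). For these 7 genes, each above background on some hairpin array, the interval stayed within 1 log2 unit of 0. With shLSD1 #2, ISG20 exceeded background on 1 of 3 arrays and MX1 on 2 of 3, and APOBEC3G lay just above it. The intervals of these genes are limited by signal over background. MX2 and CMPK2 were at background on all 6 hairpin arrays, so their values say nothing of a difference between the hairpins. With limma's prior variance trended on signal and made robust, 42 clusters passed between the hairpins and 0 of the 9 genes did, RSAD2 having the lowest adjusted p among them at 0.0680.

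**Figure D4:**
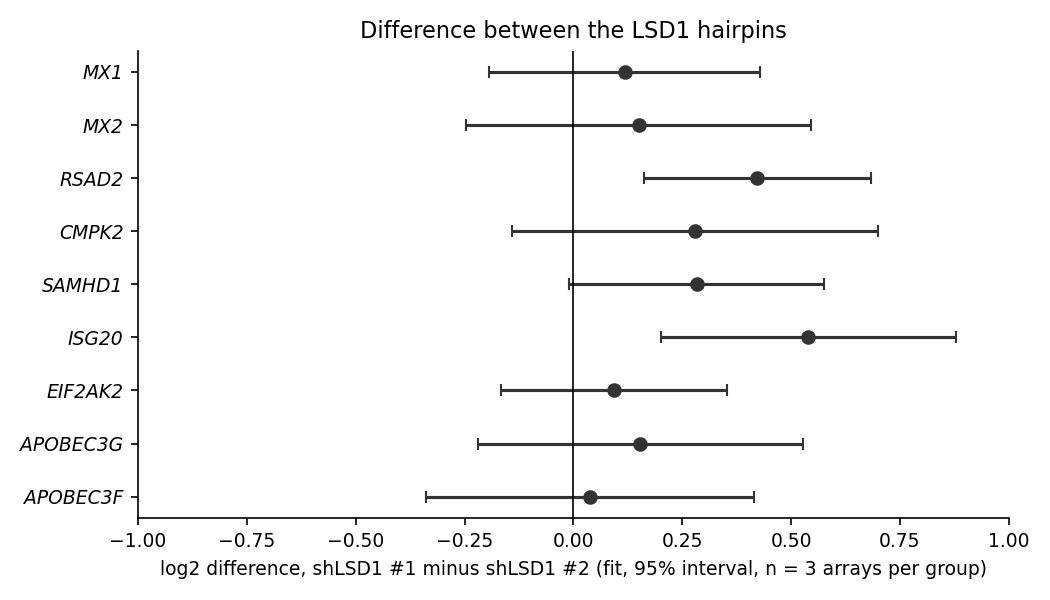
Fitted log2 difference between shLSD1 #1 and shLSD1 #2 for each gene, with 95% intervals from 3 arrays per group. The intervals of RSAD2 and ISG20 lie to the right of 0, the other 7 include 0 (MX2 and CMPK2 were at background on all 6 hairpin arrays), and 0 of 9 passed the adjusted threshold.

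Relatives and partners of the effectors were taken from 10 lists of 127 genes, 115 of which had a named cluster, and genes given for a count of 5 or fewer were named after their values were seen. In the APOBEC family, 7 further members were measured, of which 1 rose, 0 fell and 6 did not pass with each hairpin (median change 0.02 and 0.01). The riser was APOBEC3B, a nuclear deaminase known as a source of mutations in tumours, from 13.29 ± 0.051 (SD, n = 3) by 0.73 ± 0.11 and 0.71 ± 0.11 (SE, adjusted p = 0.00190 and 0.00235 in limma). Its direction was the opposite of that of APOBEC3G, and blocking on spike-in class, the shLSD1 #1 change was 0.84 ± 0.20 (adjusted p = 0.0869 in limma). APOBEC3C, the single-domain relative, read 14.24 ± 0.040, 14.15 ± 0.069 and 14.08 ± 0.030 in the 3 groups and did not pass. The 3 members APOBEC3H, APOBEC1 and APOBEC4 were at background on every array.

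Among 17 other genes of the eIF2 kinase group, 1 fell and 1 rose with shLSD1 #1, and 1 fell and 0 rose with shLSD1 #2 (median -0.16 and -0.11). The gene that fell was ADAR, which edits double-stranded RNA and thereby keeps PKR quiet. ADAR changed by -0.90 ± 0.18 and -0.82 ± 0.18 (SE, n = 3, adjusted p = 0.00948 and 0.0172 in limma). Its shLSD1 #2 call ended when control replicate 1 (adjusted p = 0.0514 in limma), control replicate 2 (0.0502), control replicate 3 (0.0565), shLSD1 #2 replicate 7 (0.0657) or shLSD1 #2 replicate 8 (0.0607) was left out. Blocking on spike-in class repeats the fit without replicate 8 for this contrast (0.0607). The high spike-in arrays alone, which also lack replicate 8, gave an adjusted p of 0.0638 in limma. EIF2AK4, the amino acid sensor GCN2, was the gene that rose with shLSD1 #1, by 0.53 ± 0.11, and had 0.11 ± 0.11 with shLSD1 #2. EIF2S3, a subunit of eIF2, had changes of 0.13 and 0.06 and did not pass.

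In the nucleotide supply list, 15 and 17 of 20 measured genes did not pass, 3 and 2 fell and 2 and 1 rose (median -0.05 and -0.05). RRM2, the subunit of ribonucleotide reductase that limits deoxynucleotide supply in dividing cells, rose by 0.48 ± 0.11 and 0.60 ± 0.11 (SE, n = 3, adjusted p = 0.0141 and 0.00534 in limma). The shLSD1 #1 call of RRM2 ended without control replicate 1 (adjusted p = 0.0539 in limma) or control replicate 3 (0.0537), and its shLSD1 #2 call ended among arrays of high spike-in signal (0.0555). TK2, the mitochondrial thymidine kinase, passed with both hairpins while at background on every array, and its shLSD1 #1 call (adjusted p = 0.0196 in limma) ended without control replicate 3 (0.0700), shLSD1 #1 replicate 4 (0.0611) or shLSD1 #1 replicate 6 (0.0634). Blocked on spike-in class, that TK2 change was -0.36 (0.554). The others past the test were CTPS2, a CTP synthase (-0.57), the nucleotidase NT5C (-0.61) and RRM1, the partner of RRM2 (0.46), with shLSD1 #1, and CAD, of pyrimidine synthesis, with shLSD1 #2 (-0.77). Among regulators of SAMHD1, 2 of 7 fell and 2 rose with each hairpin. CDKN1A, the p21 inhibitor of the cyclin-dependent kinases that phosphorylate SAMHD1, changed by -1.86 ± 0.15 and -1.95 ± 0.15, and CDK2 changed by -0.76 ± 0.12 and -0.47 ± 0.12. For shLSD1 #2 the CDK2 call ended in every fit without 1 control or shLSD1 #2 array (adjusted p 0.0616 to 0.0921 in limma). Blocking on spike-in class repeats the fit without shLSD1 #2 replicate 8 (0.0878). The high spike-in arrays alone also lack replicate 8 (0.0821). CDK6 rose by 1.52 ± 0.25 and 1.55 ± 0.25, from a signal that exceeded background on 2 of 3 control arrays, and CCNA1 passed while at background on every array.

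Dynamin relatives of MX showed 2 of 7 genes lower with shLSD1 #1 and 0 with shLSD1 #2 (median -0.34 and -0.24). DNM2, the endocytic dynamin, had -0.34 ± 0.15 and -0.45 ± 0.15, and DNM1L, which divides mitochondria, -0.49 ± 0.18 and -0.45 ± 0.18. The genes that fell with shLSD1 #1 were the mitofusins MFN1 (-0.44 ± 0.11) and MFN2 (-0.47 ± 0.12). DNM2 and DNM1L did not pass, except DNM1L with shLSD1 #1 when shLSD1 #1 replicate 5 was left out (adjusted p = 0.0429 in limma) and both genes under settings given at the end. In the list of iron-sulfur assembly and radical SAM enzymes, which includes the partners that load the viperin cluster, 1 of 13 fell and 2 rose with shLSD1 #1, and 0 fell and 1 rose with shLSD1 #2. CIAO2A, an assembly factor, rose by 0.79 ± 0.13 and 0.69 ± 0.13 (for shLSD1 #1, 0.52 ± 0.21 and no longer past the test when blocked on spike-in class), and CIAO2B, its relative, had -0.38 and -0.24 and did not pass. CIAO3, a further assembly factor, had -0.67 and -0.09, and ELP3, of the elongator complex, 0.41 and 0.18, past the test with shLSD1 #1. Of 9 other exonucleases, 1 fell and 3 rose with shLSD1 #1, and 1 fell and 1 rose with shLSD1 #2. AEN, a p53-induced nuclease related to ISG20, rose by 0.72 ± 0.11 and 0.58 ± 0.11, and REXO2, a mitochondrial oligoribonuclease, had -0.03 and -0.25 and did not pass. With shLSD1 #1 the others were XRN1 (-0.44), ERI2 (0.48) and DIS3 (0.58), and with shLSD1 #2 EXOSC10 (-0.56), all enzymes of RNA decay.

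Among other restriction factors, 12 of 18 fell with shLSD1 #1, where 7.94% of all clusters did, and 9 of 18 with shLSD1 #2, where 6.63% did. The 12 include GBP5, which was at background on every array. With both hairpins 0 rose, and the median was -1.08 and -0.93 (-0.86 and -0.66 after raising values to background). BST2, which tethers budding virions to the cell, changed by -1.997 ± 0.21 and -2.11 ± 0.21, with -1.55 ± 0.35 for shLSD1 #1 when blocked on spike-in class (adjusted p = 0.0710 in limma). HERC5, the ligase that attaches ISG15, changed by -1.76 ± 0.13 and -2.14 ± 0.13, and MOV10, an RNA helicase, by -1.80 ± 0.14 and -1.77 ± 0.14. TRIM22, a ubiquitin ligase, was at least 2.16-fold and 2.17-fold lower. This list was drawn up with a fall of interferon-stimulated genes in these arrays already known.

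**Figure D5:**
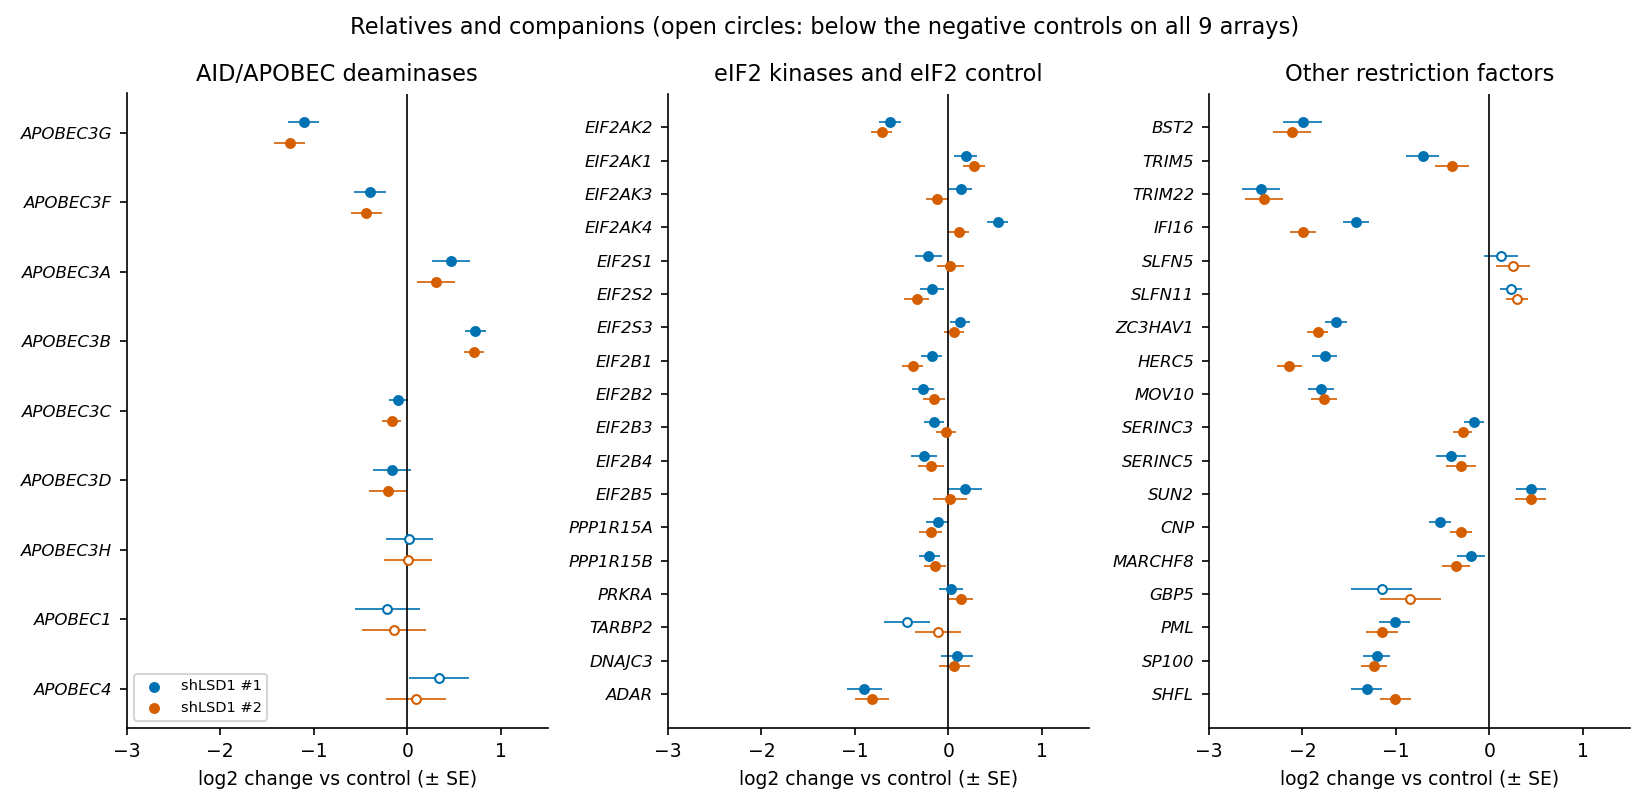
Fitted log2 change against control shRNA, with SE bars from 3 arrays per group, for the APOBEC family, the eIF2 kinase group and other restriction factors. Open circles mark genes at background on every array, and APOBEC3B lies at 0.73 and 0.71 while APOBEC3G lies at -1.11 and -1.26.

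The signalling components that act on these effectors were split. Of 11 measured, 5 fell and 0 rose with each hairpin, and 4 were at background on every array. IRF9, the DNA-binding partner of the STAT proteins, read 11.97 ± 0.039 on control arrays, 9.79 ± 0.29 with shLSD1 #1 and 9.69 ± 0.18 with shLSD1 #2 (SD, n = 3), changes of -2.18 ± 0.16 and -2.27 ± 0.16. USP18, an interferon-induced brake on the receptor, changed by -2.91 ± 0.15 and -2.74 ± 0.15, its shLSD1 #1 signal exceeding background on 1 of 3 arrays, and IRF1, an interferon-induced activator, by -1.15 ± 0.13 and -1.02 ± 0.13 (adjusted p = 0.000383 and 0.000804 in limma). IRF7 and SOCS3 passed while at background on every array, IRF7 at adjusted p = 0.0458 and 0.0290 in limma. The IRF7 call with shLSD1 #1 ended on omitting any array but control replicate 1 (adjusted p up to 0.130 in limma). That with shLSD1 #2 ended on omitting control replicate 2 or 3 or any shLSD1 #2 array (up to 0.0947). Blocking on spike-in class repeats the fit without shLSD1 #2 replicate 8 (0.0757). The high spike-in arrays alone also lack replicate 8 (0.151). The receptor chains IFNAR1 and IFNAR2 and the kinases JAK1 and TYK2 did not pass. All 6 interferon genes with a cluster, IFNL1 and IFNL3 among them, were at background on every array and 0 passed.

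For each effector above background in some group, the genes of closest profile were those with the smallest root mean square distance between centred log2 values over the 9 arrays. The arrays are the same for all genes and fall into a control and a hairpin group, so any gene with a similar change comes out close. MX1 was closest to OAS1, an oligoadenylate synthetase (distance 0.21), and to its relative OAS2 (0.28), both above background on the 3 control arrays alone. RSAD2 was closest to the chemokine gene CCL5 (0.17) and to IFI27, an interferon-induced mitochondrial protein (0.20). CMPK2 was also closest to CCL5 (0.19), then to PLCG2, a phospholipase C (0.22). SAMHD1 was closest to the lysosomal protein gene CD68 (0.12) and the collagen gene COL6A1 (0.12), ISG20 to CSF1 (0.16), a macrophage growth factor, and MUC1 (0.18), a mucin, and APOBEC3G to COL6A1 (0.14) and RPS6KC1 (0.14). EIF2AK2 was closest to MBNL1 (0.05), a splicing regulator, and DAAM1 (0.06), and APOBEC3F to ZBTB11 (0.05) and FBXL20 (0.07).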

How the data were processed

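The authors deposited log2 signal values per transcript cluster, made by RMA in Affymetrix Expression Console 1.4 per the submitters' processing notes. The base was taken as 2, the RMA default, and library files were not given in the sources used here. Of the probe sets, 21448 transcript clusters were tested, with no filter on signal. Symbols came from the array annotation (17709 clusters with 1 symbol), and for a gene with several clusters that of highest mean stood for it. The 3 groups of 3 arrays entered a single limma 3.58.1 fit in R 4.3.3, adjusted by Benjamini-Hochberg over all clusters, with two-sided p-values. Where all 3 arrays of a group lay below the negative controls, the mean of their 95th percentiles replaced its mean and the fold is a lower bound. Named genes are the 9 effectors, per list up to 4 genes past the test with both hairpins by mean change, filled up to 2 by signal, and the 2 closest profiles. Effectors and lists were chosen with earlier results of these data known. The procedure was tested on simulated data. Alternatives were other normalizations, priors, weights, groups, the spike-in class and omission of each array. The number of arrays limits the precision.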

Additional observations from a re-analysis of the deposited data

How the results depend on the processing

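The labels number the arrays in series and do not state which were prepared together, so no paired analysis was made. Clusters called with shLSD1 #1 went from 3385 to 399 when blocked on spike-in class, and the effectors called lower from 8 to 5. The block rests on how shLSD1 #2 replicate 8 differs from the other shLSD1 #2 arrays, so nothing about a batch is read from it. For shLSD1 #2 the block equals leaving out replicate 8, which the high spike-in arrays alone also leave out. For shLSD1 #2 the clusters called went from 2827 to 1450 among arrays of high spike-in signal, while 8 effectors stayed called. Between the hairpins a trended robust prior called 42 clusters against 0. Omitting single arrays gave 2375 to 3275 clusters for shLSD1 #1, 1918 to 2710 for shLSD1 #2 and 0 between hairpins, with 8 effectors called lower each time. Without the clusters of lowest mean, which include MX2, 7 effectors were called with each hairpin. The effectors were chosen with these differences known, so nothing is read from how many stayed called. With the block, signs turned for APOBEC3F with shLSD1 #1 (0.0046) and EIF2S3 with shLSD1 #1 (-0.029). On omitting single arrays, signs turned for REXO2 with shLSD1 #1 (-0.071 to 0.027) and for the hairpin differences of MX1 (-0.026 to 0.22), MX2 (-0.041 to 0.31), APOBEC3G (-0.0079 to 0.33) and APOBEC3F (-0.097 to 0.19), none of them past the threshold. Under the trended robust prior DNM2 and DNM1L passed with both hairpins and CIAO2B with shLSD1 #1, and DNM2 passed with shLSD1 #2 once clusters of low mean were dropped. Under the block the shLSD1 #1 calls of TK2 (-0.57 to -0.36), CIAO2A (0.79 to 0.52), RRM2 (0.48 to 0.44), ADAR (-0.90 to -0.80), CDK2 (-0.76 to -0.71), CDK6 (1.52 to 1.93), IRF1 (-1.15 to -1.13), IRF7 (-0.81 to -0.85), APOBEC3B (0.73 to 0.84) and BST2 (-1.997 to -1.55) ended, with larger SEs, as did the shLSD1 #2 calls of ADAR, CDK2 and IRF7. The causes were not tested. Changes below the negative controls, as for MX2 and CMPK2, are limited by signal over background.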
